A study of Homo sapiens with 6 samples.

Results

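The 10 genes described here carry nucleosides and fluoropyrimidines into the cell, turn 5-fluorouracil into its active nucleotides, or convert or break down such compounds. They are the transporters SLC29A1 and SLC29A2, the enzymes UMPS, TYMP, UPP1, UCK1, UCK2, NT5E and CDA, and the degrading enzyme DPYD. They were taken by gene symbol from 6 tables of RNA-seq values, in which all 10 were present among 19942 symbols. The cells were HCT116, an established human colorectal carcinoma line, either parental (wild-type in the labels) or resistant to 5-fluorouracil. Both lines were studied without transfection, after transfection of a control siRNA, and after transfection of an siRNA that targets EHMT2, which encodes the histone methyltransferase G9a. The design text speaks of replicates, and 1 library was analysed here for each of the 6 combinations. Sources used here do not say how the resistant cells were selected or whether they were 1 clone. The values are FPKM, fragments scaled to the length of the gene and to the mapped fragments of the library, so levels can be set side by side between genes. Depth is unknown, since FPKM tables hold no read counts.

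5-Fluorouracil acts through its nucleotides, which inhibit thymidylate synthase and are built into nucleic acids. The base is converted to fluorouridine monophosphate either in 1 step by the phosphoribosyl transferase activity of UMPS, or through the nucleoside by UPP1 and then the uridine-cytidine kinases UCK1 and UCK2, while TYMP links the base to the deoxynucleoside. Equilibrative transporters move nucleosides across the plasma membrane, NT5E (CD73) removes phosphate from extracellular nucleoside monophosphates, CDA deaminates cytidine analogues, including the precursor made from capecitabine, and DPYD starts the breakdown of the fluorinated base, chiefly in the liver.

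The labels were checked on EHMT2 itself, whose FPKM was 31.7 with control siRNA and 8.58 with EHMT2 siRNA in parental cells, and 19.5 and 3.80 in resistant cells. Both libraries labelled as knockdown were below the other 4, of which the untransfected pair had 19.8 in parental and 27.3 in resistant cells. Of 12 markers of colorectal epithelium, 6 (EPCAM, CDH1, KRT8, KRT18, KRT19, CDX2) were at 1 FPKM or more in all 6 libraries, and KRT20, VIL1, CDX1, LGALS4, GPA33 and CEACAM5, were below 1 in all of them. Of 12 markers of leukocytes, endothelium and fibroblasts, 11 were below 1 in all 6, the exception being COL1A1, and their summed FPKM lay between 3.35 and 10.6. Ratios below are log2 ratios of FPKM with 1 added. The FPKM sums of the libraries ranged from 360695 to 446143. Rescaling to the same sum moved the median ratio of all genes from 0.07 to 0.28 between the untransfected lines, from 0.04 to 0.20 for control siRNA against untransfected parental cells, and from 0.09 to 0.20 for EHMT2 siRNA in parental cells, and by less than 0.1 in the other pairs.

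NT5E had the highest FPKM of the 10 in 5 of 6 libraries, and SLC29A1 in the sixth, parental cells with control siRNA. TYMP was in place 2 or 3 in every library. UMPS and UCK1 stood low among the expressed members, in places 8 to 9 and 7 to 9, and DPYD was lowest in all 6. UPP1 moved most in this order, between places 3 and 9, followed by CDA, between 4 and 9. With 1 library a group, neighbours in the order cannot be separated from library error.

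**Figure D1:**
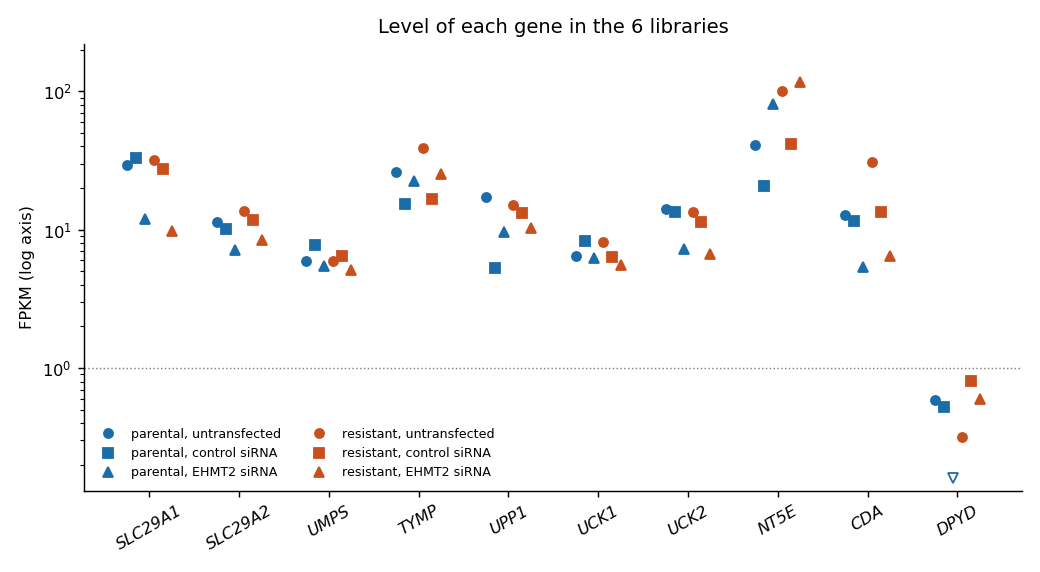
FPKM (log axis) of the 10 genes in the 6 libraries, with colour for the line and marker shape for the treatment; the open triangle is a library in which the gene is listed at 0 and the dotted line is 1 FPKM. NT5E reaches 118 and DPYD stays below 1. The EHMT2 siRNA libraries of SLC29A1, UCK2 and CDA lie below the other 4, as for 17.2% of 12310 genes.

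Of the transporters, SLC29A1 (ENT1, ENSG00000112759, chromosome 6, 44219505 to 44234151, GENCODE 29 on GRCh38), the main equilibrative carrier of pyrimidine nucleosides, was lower with EHMT2 siRNA in both lines by nearly the same amount. In parental cells its FPKM was 29.3 untransfected, 33.3 with control siRNA and 12.04 with EHMT2 siRNA. In resistant cells the same libraries had 31.7, 27.3 and 9.79. Both EHMT2 siRNA libraries were thus far below all 4 others, which lay between 27.3 and 33.3. Both lay below the other 4, by any amount, for 17.2% of 12310 genes. In bulk RNA, fewer cells with a transcript and less of it per cell cannot be told apart. The ratio of EHMT2 siRNA over control siRNA was −1.39 in either line, 36.2% of the control level in parental and 35.9% in resistant cells. Of 11948 genes at 1 FPKM or more in the parental pair, 118 had a lower ratio than SLC29A1, and 146 of 11750 in the resistant pair. Against untransfected cells the ratios of EHMT2 siRNA were −1.22 and −1.60. The lines differed little in SLC29A1, with ratios of resistant over parental cells of 0.11 untransfected, −0.28 with control siRNA and −0.27 with EHMT2 siRNA.

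SLC29A2 (ENT2, ENSG00000174669, chromosome 11, 66362521 to 66372214), a second carrier of the family that also takes nucleobases, followed in the same direction and by less. Its FPKM was 11.3, 10.2 and 7.18 in parental cells and 13.7, 11.7 and 8.42 in resistant cells, in the order untransfected, control siRNA and EHMT2 siRNA. The ratio for EHMT2 siRNA was −0.45 and −0.43. Here too both knockdown libraries were below the other 4, as they were for 17.2% of 12310 genes. Many genes had a lower ratio than SLC29A2, 2134 of 11948 in the parental pair and 2323 of 11750 in the resistant pair. The quotient of SLC29A1 over SLC29A2 within a library, which no rescaling of a library can change, was 2.59, 3.27 and 1.68 in parental cells and 2.31, 2.34 and 1.16 in resistant cells. It was lowest in the EHMT2 siRNA library of each line, and how often this holds for quotients of other genes was not counted. SLC29A2 shares 10.3% of its exonic bases with an antisense transcript, and whether the quantification used strand was not stated in the labels.

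The SLC29A1 gene has 2 RefSeq starts with a promoter window in the reference table used here. SLC29A1, CDA and UCK2 were the lower members under EHMT2 siRNA with the largest ratios. For this reason, stretches of their windows outside annotated exons are shown, from both windows for SLC29A1. They are read 5′ to 3′ on the gene's strand, build GRCh38.p14, with capitals for matches to the searched motifs, at chr6:44219365-44219504 and chr6:44223345-44223503 for SLC29A1, chr1:20588847-20588947 for CDA and chr1:165827364-165827469 for UCK2, all on the plus strand.

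SLC29A1 upstream start: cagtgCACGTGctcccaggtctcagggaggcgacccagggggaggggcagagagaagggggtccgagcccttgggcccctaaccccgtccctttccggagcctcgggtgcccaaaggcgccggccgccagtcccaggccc

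SLC29A1 downstream start: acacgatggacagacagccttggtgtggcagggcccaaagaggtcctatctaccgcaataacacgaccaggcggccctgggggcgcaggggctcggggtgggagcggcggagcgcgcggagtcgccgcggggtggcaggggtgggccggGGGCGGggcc

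CDA: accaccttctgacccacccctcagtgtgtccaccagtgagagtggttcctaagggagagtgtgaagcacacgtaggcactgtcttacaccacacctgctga

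UCK2: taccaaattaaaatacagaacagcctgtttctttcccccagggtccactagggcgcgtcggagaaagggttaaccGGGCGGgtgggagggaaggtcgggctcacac

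The motifs searched on both strands of the whole 250 bases before each start were the GC box GGGCGG, the TEAD element GGAATG, the E2F elements TTCGCGC and TTGGCGC, the E-box CACGTG, the AP-1 element TGACTCA and the CCAAT box. The GC box occurred 2 and 3 times in the SLC29A1 windows and 4 times in that of UCK2, and in 42.6% of all 35116 windows of the table. Most of these matches lie in bases annotated as exon, which are not printed. The E-box in the upstream SLC29A1 window was held by 6.34% of all windows. The CDA window held none of the searched letters, whereas that of UCK2 also had a CCAAT box, as 32.0% of all windows did. No letters of the TEAD or E2F elements, held by 11.9% for TEAD and by 1.85% and 2.56% for E2F of all windows, were found in the windows of the 9 members that had one. A promoter of SLC29A2 was not matched. These matches describe letters only.

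Among the activating enzymes UMPS (ENSG00000114491, chromosome 3, 124730366 to 124749273), which makes the nucleotide from the base in 1 step, varied least together with UCK1. Its FPKM was 5.97 untransfected, 7.81 with control siRNA and 5.48 with EHMT2 siRNA in parental cells, and 5.94, 6.46 and 5.16 in resistant cells. The untransfected lines had nearly equal levels. The ratio for EHMT2 siRNA was −0.44 in parental and −0.28 in resistant cells.

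TYMP (thymidine phosphorylase, ENSG00000025708, chromosome 22, 50525752 to 50530056) was highest in untransfected cells of both lines. Its FPKM was 26.3, 15.2 and 22.7 in parental cells and 38.7, 16.7 and 25.1 in resistant cells, in the same order of treatments. Control siRNA libraries were the low ones, with a ratio over untransfected cells of −0.75 in parental and −1.17 in resistant cells. With EHMT2 siRNA the ratios over control siRNA were 0.54 and 0.57, but the levels stayed below those of the untransfected library of the same line, with ratios of −0.21 and −0.60. TYMP shares 20.7% of its exonic bases with ODF3B and SCO2 on the same strand, so its exact level is uncertain.

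UPP1 (uridine phosphorylase, ENSG00000183696, chromosome 7, 48088628 to 48108733) was the member with the least common pattern between the lines. In parental cells its FPKM was 17.3 untransfected, 5.28 with control siRNA and 9.63 with EHMT2 siRNA. In resistant cells it was 15.0, 13.2 and 10.3. The parental control siRNA library is the single low value. The ratio of control siRNA over untransfected was −1.54 in parental cells, where 64 of 11631 genes were lower, against −0.17 in resistant cells. The same library entered the ratio of resistant over parental cells of 1.18 with control siRNA, where untransfected cells had −0.19 and cells with EHMT2 siRNA 0.08. The searched AP-1 element was found in 1 of the 3 RefSeq windows of UPP1, and in 4.2% of all windows.

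The uridine-cytidine kinases, a pair of paralogues that phosphorylate uridine and fluorouridine, differed from each other. UCK2 (ENSG00000143179, chromosome 1, 165827531 to 165911618), the form often raised in tumours, had an FPKM of 14.1, 13.4 and 7.28 in parental and of 13.5, 11.3 and 6.67 in resistant cells. Its EHMT2 siRNA libraries were at 54.2% and 59.0% of the control level, with ratios of −0.80 and −0.68, and the other 4 libraries lay within a narrow range. UCK1 (ENSG00000130717, chromosome 9, 131523801 to 131531268) had 6.51, 8.25 and 6.26 in parental and 8.18, 6.39 and 5.54 in resistant cells, with ratios for EHMT2 siRNA of −0.35 and −0.18. The quotient of UCK2 over UCK1 was 2.17, 1.63 and 1.16 in parental cells and 1.65, 1.77 and 1.21 in resistant cells. Both EHMT2 siRNA libraries were below the other 4 in this quotient. How often quotients of other genes separate in this way was not counted. UCK2 shares 7.56% of its exonic bases with other genes, partly on the opposite strand.

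NT5E (ENSG00000135318, chromosome 6, 85449584 to 85495791) varied widely between the libraries. In parental cells its FPKM was 40.8 untransfected, 20.7 with control siRNA and 80.6 with EHMT2 siRNA. In resistant cells the values were 101, 41.3 and 118. Under every treatment the resistant library was the higher one of its pair, and in both lines control siRNA was low and EHMT2 siRNA high. The resistant library was also the higher one under every treatment for TYMP, CDA and SLC29A2, with smaller ratios than for NT5E. The share of all genes with this order was not counted. Over control siRNA the ratio was 1.91 in parental cells, with 85 of 11948 genes higher, and 1.49 in resistant cells, with 140 of 11750 higher. Against untransfected cells the same libraries had ratios of 0.96 in parental and 0.23 in resistant cells, and the control siRNA library lay below the untransfected one by 0.95 and 1.26. The levels of the lines overlapped, since untransfected resistant cells were above parental cells with EHMT2 siRNA but resistant cells with control siRNA were not.

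CDA (cytidine deaminase, ENSG00000158825, chromosome 1, 20588948 to 20618908) was set apart by 1 high library. Its FPKM was 12.8, 11.5 and 5.33 in parental and 30.7, 13.4 and 6.44 in resistant cells. Untransfected resistant cells were above all others, and both EHMT2 siRNA libraries below all others, as the latter were for 17.2% of 12310 genes. The line ratio was 1.20 untransfected, but 0.21 with control siRNA and 0.23 with EHMT2 siRNA. With EHMT2 siRNA its FPKM was 46.4% of the control siRNA level in parental and 47.9% in resistant cells. The ratios with 1 added, −0.98 and −0.96, stop short of 2-fold, and with 0.1 added or after median centring they pass it in both lines. With the same sum in each library they stay short of it in both lines.

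DPYD (dihydropyrimidine dehydrogenase, ENSG00000188641, chromosome 1, 97077743 to 97995000) was near the lower end of what the files report. Its FPKM was 0.583 untransfected and 0.524 with control siRNA in parental cells, where it is listed at 0 with EHMT2 siRNA, and 0.317, 0.812 and 0.603 in resistant cells. The lowest values above 0 in the libraries were 0.172 to 0.264, so these levels are close to that end. It shares 8.46% of its exonic bases with an antisense RNA and MIR137HG. It stayed below 1 FPKM in all 6, so the filter of 1 FPKM kept it out of the counts and fits below. Only the settings without a filter held it. There its limma coefficients were 0.22 for the line, 0.20 for control siRNA and −0.39 for EHMT2 siRNA, none at an adjusted p under 0.05. The enzymes that follow it in the breakdown, DPYS and UPB1, were also below 1 in every library.

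**Figure D2:**
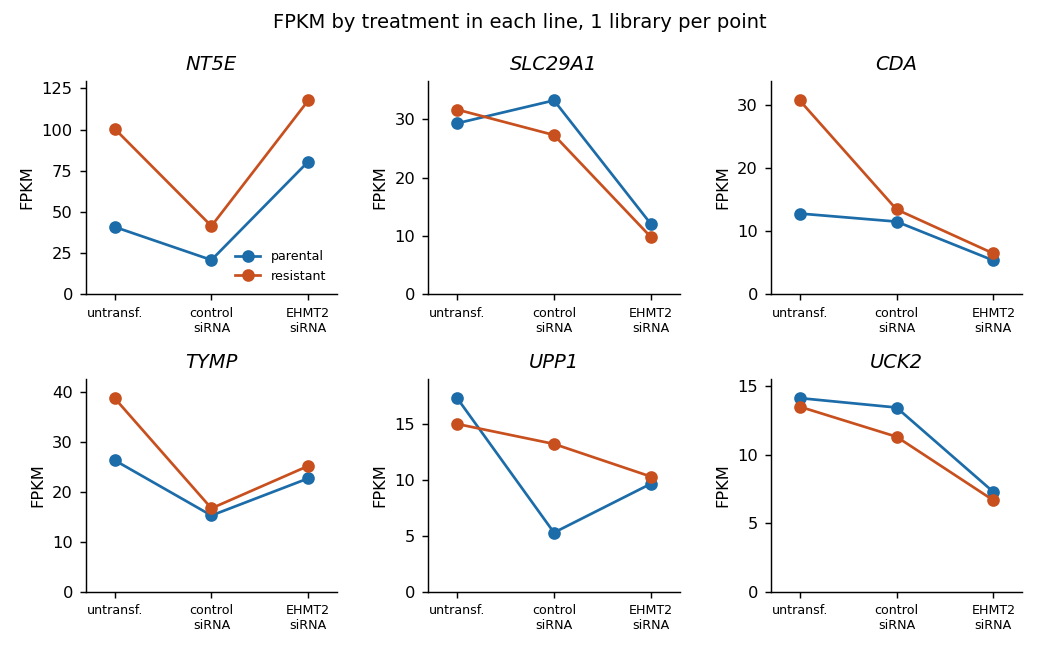
FPKM of 6 of the genes (linear axes from 0, a separate scale for each gene) by treatment, with 1 library per point and lines joining libraries of the same line of cells. SLC29A1, UCK2 and CDA are lowest with EHMT2 siRNA in both lines, NT5E and TYMP are lowest with control siRNA, and UPP1 is at 5.28 in parental cells with control siRNA against 13.2 in resistant cells.

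The first comparison set resistant against parental cells, in 3 pairs of libraries. Of the 9 members at 1 FPKM or more, 2 were at least 2-fold higher in untransfected resistant cells, NT5E and CDA, and 0 were that much lower, where 3.48% of 11731 genes were higher and 3.92% lower, 7.4% in either direction. That split of 408 higher and 460 lower genes became 726 and 307 with the same sum in each library, while the members called were 2 and 0 as before. With control siRNA 1 was higher, UPP1, against 1.6% of genes, and 0 were lower, against 0.96% (2.56% in either direction). With EHMT2 siRNA 0 members were 2-fold apart, against 1.54% of genes higher and 1.55% lower, or 3.09% in all. The median ratio of the 9 was 0.26, 0.12 and 0.08 in these pairs, and that of all genes 0.07, −0.02 and −0.05. For no member did the 3 resistant libraries lie on one side of the 3 parental ones, where 2.79% of 12310 genes were wholly higher and 2.73% wholly lower. In the untransfected pair UMPS, UPP1 and UCK2 had ratios of −0.01, −0.19 and −0.06 that turned to 0.20, 0.04 and 0.17 with the same sum in each library.

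An additive limma model of line and treatment was fitted to all 6 libraries for the 11521 genes that reached 1 FPKM in 3 or more of them, and what the line and the treatment do not explain additively served as its error. For the line it called 0 of the 9 members and 0% of all genes at an adjusted p under 0.05 (Benjamini-Hochberg), with 603 genes, or 5.23%, at an unadjusted p under 0.05. NT5E was the 1 member among these, with a coefficient of 0.93 (SE 0.19) and an adjusted p of 0.578 by limma. The other 8 had coefficients between −0.15 and 0.55. Restricted to the 4 siRNA libraries, the same limma model called NT5E higher in resistant cells (0.75, SE 0.14, adjusted p = 0.0265). It called no other member, and called 4.49% of genes higher, 4.47% lower and 8.96% in all. This fit has 1 residual degree of freedom, and its NT5E coefficient is smaller than the 0.93 over 6 libraries. The ratios of NT5E in its line pairs were 0.96 with control siRNA and 0.54 with EHMT2 siRNA.

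The next comparison set EHMT2 siRNA against control siRNA in each line. In both lines NT5E was the 1 member at least 2-fold higher and SLC29A1 the 1 at least 2-fold lower. The background was 5.22% higher and 4.04% lower of all genes in resistant cells, 9.26% in all, and 7.48% higher and 3.51% lower in parental cells, 11.0% in all. In parental cells the split of 894 higher and 419 lower genes was 1168 and 301 with the same sum, and 702 and 575 after median centring. Past 2-fold in both lines were 3.28% of 12153 genes upward and 2.23% downward. The median ratio of the 9 members was −0.33 in resistant and −0.44 in parental cells, with all genes at 0.06 and 0.09. Both EHMT2 siRNA libraries lay below the other 4 for 6 of the 9 members, UMPS, UCK1, UCK2, CDA, SLC29A1 and SLC29A2, as they did for 17.2% of all genes. With the same sum in each library this held for 4 of them, without UMPS and UCK1, and for 11.9% of genes. No member had both above the other 4, where 25.4% of genes did. Against the control siRNA libraries alone, both EHMT2 siRNA libraries were above for 2 members, TYMP and NT5E, as for 35.4% of genes, and below for the same 6, as for 26.3%. With the same sum in each library these were 2 members above, against 40.9% of genes, and 5 below, without UCK1, against 21.7%. This way of counting was chosen after the values were seen.

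**Figure D3:**
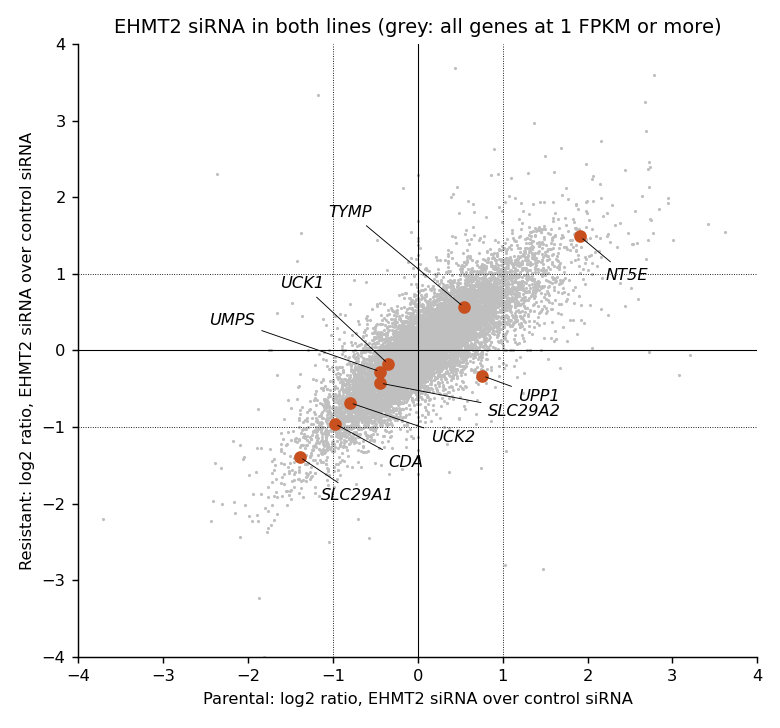
log2 ratio of EHMT2 siRNA over control siRNA in parental (x) and resistant cells (y), with the 9 members at 1 FPKM or more as coloured points and 12153 genes in grey (3 lie outside the axes); dotted lines mark 2-fold. SLC29A1 lies at −1.39 on both axes, NT5E at 1.91 and 1.49, and UPP1 is off the diagonal at 0.76 and −0.33.

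In the limma fit over 6 libraries the EHMT2 siRNA coefficient was 1.70 (SE 0.23) for NT5E and −1.39 (SE 0.19) for SLC29A1, each with an adjusted p of 0.0529 that misses the threshold. UCK2 had −0.74 (SE 0.18, adjusted p = 0.0861, limma), CDA −0.97 (SE 0.30, adjusted p = 0.127), TYMP 0.55 (SE 0.19, adjusted p = 0.151) and SLC29A2 −0.44 (SE 0.17, adjusted p = 0.186). These 6 of the 9 had an unadjusted p under 0.05, as did 26.6% of all genes, and 0% of genes passed after adjustment. UMPS, UCK1 and UPP1 had coefficients of −0.36, −0.26 and 0.21. When the untransfected libraries were left out, the 4-library limma fit called NT5E and TYMP higher and SLC29A1, SLC29A2, UCK2 and CDA lower, with adjusted p between 0.000791 and 0.0331. That fit has 1 residual degree of freedom and called 23.8% of all genes higher and 18.7% lower, 42.5% together, so the members' 2 and 4 of 9 stand against a large background. With a filter of 5 FPKM in place of 1, the 6-library limma fit put NT5E and SLC29A1 at an adjusted p of 0.0475. That was the lowest for EHMT2 siRNA in this fit, which called 263 of 8280 genes, 130 higher and 133 lower. All p-values measure only the spread among these libraries.

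Control siRNA against untransfected cells shows how far transfection libraries lay from the untransfected ones. In resistant cells 3 of 9 members, NT5E, TYMP and CDA, were at least 2-fold lower, where 3.87% of genes were, and in parental cells 1, UPP1, where 2.08% were. Of the 9, 0 were 2-fold higher in either line, where 4.31% and 0.954% of genes were, and either direction took 8.18% of genes in resistant and 3.03% in parental cells. The parental split of 111 higher and 242 lower genes became 241 and 158 with the same sum. Both control siRNA libraries were below both untransfected ones for UPP1, TYMP and UCK2, as for 17.5% of 12310 genes, and above them for UMPS, as for 17.6%. UCK2 left the first group with the same sum in each library. In the 6-library limma fit 0 of 9 members passed and 0.0434% of genes did, 0.0347% higher and 0.00868% lower. An unadjusted p under 0.05 was reached by 2 members, NT5E and TYMP, and by 7.06% of genes. NT5E had a coefficient of −1.11 (SE 0.23, adjusted p = 0.7) and TYMP of −0.96 (SE 0.19, adjusted p = 0.7).

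**Figure D4:**
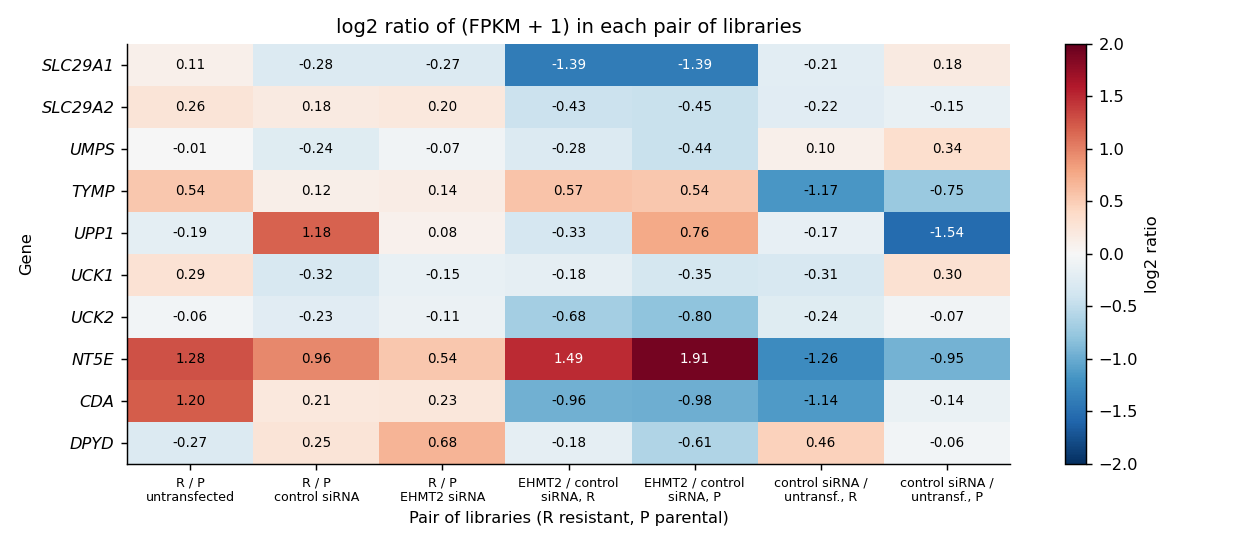
log2 ratios of FPKM with 1 added for the 10 genes in the 7 pairs of libraries (R resistant, P parental), coloured from −2 (blue) to 2 (red); DPYD is below 1 FPKM throughout. The EHMT2 siRNA columns show 1.49 and 1.91 for NT5E beside −1.39 for SLC29A1, and the untransfected line column 1.28 for NT5E and 1.20 for CDA.

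A list of 57 other genes of pyrimidine transport, salvage, breakdown and thymidylate and folate supply was set beside the members, and 47 of them reached 1 FPKM in any library. Of 6 other transporters, 4 (the concentrative carriers SLC28A1, SLC28A2 and SLC28A3, and SLC22A7) were below 1 in all libraries, as were CES1, a capecitabine esterase, and UPP2, the second uridine phosphorylase. With EHMT2 siRNA 1 of 45 genes of the list was at least 2-fold higher and 5 lower in resistant cells, against 5.22% and 4.04% of all genes, and 2 and 5 of 46 in parental cells, against 7.48% and 3.51%, with medians of −0.09 and −0.22. With the same sum in each library the parental counts were 4 higher and 2 lower. Both EHMT2 siRNA libraries lay below the other 4 for 14 of the 47, against 17.2% of all genes. They lay above the other 4 for 5, against 25.4%. Against control siRNA alone, 21 of the 47 were below and 10 above, where 26.3% and 35.4% of all genes were. Between the lines 3 of 47 were higher and 2 lower in untransfected cells, against 3.48% and 3.92% of all genes, and 0 were 2-fold apart with control siRNA or EHMT2 siRNA, against 2.56% and 3.09%. Of the 46 tested genes of the list, 0 passed for line, EHMT2 siRNA or control siRNA in the 6-library limma fit. The 4-library limma fit called 5 of the 46 higher and 15 lower with EHMT2 siRNA, where 23.8% of all genes were higher and 18.7% lower, and 2 higher and 3 lower in resistant cells, where 4.49% and 4.47% of genes were.

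Listed genes with a wide range included NME4, TYMS, TK1, RRM2, SHMT1 and NT5C3B. NME4, a mitochondrial nucleoside diphosphate kinase, had an FPKM of 27.7, 46.7 and 7.83 in parental cells and of 1.59, 45.8 and 8.98 in resistant cells. It was low in untransfected resistant cells and with EHMT2 siRNA in both lines. TK1, the cytosolic thymidine kinase that also accepts fluorodeoxyuridine made by TYMP, had 55.3, 85.5 and 21.4 in parental and 67.2, 58.1 and 11.6 in resistant cells. Their EHMT2 siRNA coefficients in the 6-library limma fit were −2.33 for NME4 (adjusted p = 0.176) and −2.09 for TK1 (adjusted p = 0.0529). TYMS, the target enzyme of the drug, had an FPKM of 46.1, 92.4 and 42.1 in parental and of 294, 61.2 and 24.6 in resistant cells. Untransfected resistant cells were far above the other 5 libraries, with a ratio over parental cells of 2.65, against −0.59 with control siRNA and −0.76 with EHMT2 siRNA. RRM2, a ribonucleotide reductase subunit, had 41.0, 78.1 and 36.5 in parental and 92.5, 63.3 and 22.0 in resistant cells, with line ratios of 1.16, −0.30 and −0.70. Over control siRNA, EHMT2 siRNA gave ratios of −1.28 for TYMS and −1.48 for RRM2 in resistant cells, and of −1.12 and −1.08 in parental cells. Their coefficients in the 6-library limma fit were −1.20 for TYMS (adjusted p = 0.4) and −1.28 for RRM2 (adjusted p = 0.155). SHMT1, a serine hydroxymethyltransferase, had a ratio of −1.08 in both lines and a limma coefficient of −1.08 (adjusted p = 0.0584). NT5C3B, a nucleotidase, was low in untransfected resistant cells, at 22.8 against 50.4 in parental ones, and was between 47.3 and 62.1 in the other 4 libraries.

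For the 5 members whose log2 level varied by 1 or more over the 6 libraries, the genes with the most similar centred profile were sought among 9379 others, by Euclidean distance on the log2 scale. For SLC29A1 they were CDCA4 (0.21), PAK4 (0.24) and DBNDD1 (0.27). CDCA4 had an FPKM of 14.2, 16.9 and 6.91 in parental and of 16.1, 14.3 and 4.95 in resistant cells. For CDA they included SEMA4B (0.26) and LSR (0.53), a tricellular junction protein. For NT5E they were WWC3 (0.32), MT1X (0.47), a metallothionein, and MYL12A (0.48), a myosin light chain. TYMP was closest to LMO4 (0.28), IDUA (0.29) and ENY2 (0.30), and UPP1 to PLLP (0.33), LRATD2 (0.36) and NXT1 (0.50). A distance over 6 libraries describes these libraries only.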

How the data were processed

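RNA-seq was made from total RNA of 6 HCT116 cultures with the TruSeq RNA v2 kit (labels' protocols). StringTie 2.1.1, HISAT2 2.2.1, cutadapt 4.9, FastQC 0.12.1 and GRCh38 appear in the submitters' processing notes, with neither annotation nor strand stated. The authors deposited FPKM, 1 table per library of 19957 rows. Tables were joined by gene ID, and the row of highest mean was kept for each of 19942 symbols. Groups came from the sample titles. The members and lists were chosen with earlier results of these data known. Ratios are log2 of FPKM with 1 added, and counts use genes that reached 1 FPKM in either library of a pair. The limma 3.58.1 fit (R 4.3.3) used a mean-variance trend. It was also run on data simulated with independent errors, where only the median error of its estimates had to stay small. That run does not show how many true changes the fit misses in these libraries. The replicate source of each library is not stated. Named were all members, EHMT2, up to 8 listed genes at least 2-fold apart in 2 or more pairs at 5 FPKM or more, by widest range, and the 3 genes nearest each member that varied by 1 or more. Some genes that this rule names are not reported here. Alternatives were another pseudocount, filters, thresholds, scalings, no trend, the 4 siRNA libraries and leaving out each library. Promoters are RefSeq's, and coordinates of genes GENCODE 29. Proteins were not compared here.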

Additional observations from a re-analysis of the deposited data

Results flagged for a closer look

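Opposite directions of the same comparison stood out for UPP1 and UCK1, and the differences were not tested, which is not possible with 1 library a group. The ratio of EHMT2 siRNA over control siRNA for UPP1 was −0.33 in resistant and 0.76 in parental cells, a difference of 1.09, and the parental control siRNA library at 5.28 FPKM enters it. UCK1 had a ratio of control siRNA over untransfected of −0.31 in resistant and 0.30 in parental cells, a difference of 0.61. Its ratio of resistant over parental cells was accordingly 0.29 untransfected and −0.32 with control siRNA, again 0.61 apart, since the same 4 libraries enter both. Opposite directions were looked for where both ratios were at least 0.25 from 0.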

How the results depend on the processing

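No pairing by replicate number was possible because every library is numbered as the first replicate, so the groups share fewer than 2 numbers. Treatments were compared within each line, and lines within each treatment, by the ratios and by the additive limma model. At 4-fold in place of 2-fold, 0 members were apart in each pair, and few of all genes were. Between the lines these were 113 of 11731 genes untransfected, 28 of 11557 with control siRNA and 23 of 11937 with EHMT2 siRNA. For EHMT2 siRNA they were 62 of 11750 in resistant and 82 of 11948 in parental cells. For control siRNA over untransfected they were 119 of 11666 and 34 of 11631. At 1.5-fold the counts of members were 2 between the lines with control siRNA, 4 and 5 with EHMT2 siRNA in resistant and parental cells, and 3 for control siRNA in parental cells, where 1388 of 11557, 3479 of 11750, 3938 of 11948 and 1763 of 11631 genes were that far apart. Of 315 recomputed ratios of members 285 moved by less than the residual SD of the gene, and 30 by more. The 315 include settings that change only the FPKM filter. Those cannot move a ratio and so are all among the 285. Of 342 recomputed limma coefficients, 27 passed the threshold that they had missed over 6 libraries. Of the 342, 13 changed sign, all within UPP1, UCK1 and SLC29A1. The filter settings and the fit without a trend cannot move a coefficient, so no sign could change there. All of the 27 came from the 5 FPKM filter, the 4 siRNA libraries or fits without 1 untransfected library. A fit without 1 untransfected library takes its error from the 4 siRNA libraries alone, since the other untransfected library is fitted exactly. These fits and the 4-library fit are thus not separate checks. UCK1 turned to 0.0023 for the line with the same sum in each library, and for control siRNA to 0.054 with the same sum and 0.028 with quantile normalisation. SLC29A1 turned to 0.053 for control siRNA with the same sum. Leaving out 1 library gave UPP1 −0.055 (without either control siRNA library) to 0.63 for the line and −0.40 (without the parental control siRNA library) to 0.83 for EHMT2 siRNA, UCK1 −0.24 to 0.069 (without either control siRNA library) for the line and −0.27 to 0.26 for control siRNA, and SLC29A1 −0.21 to 0.18 for control siRNA. The limma fit with Benjamini-Hochberg adjustment called 0 genes for the line over 6 libraries, 1 without a filter, 1032 in the 4 siRNA libraries and 0 to 1034 when 1 library was left out, the high counts being 1034 and 1018 without the parental or the resistant untransfected library. For EHMT2 siRNA it called 0, 12 without a filter, 263 at 5 FPKM, 4902 in the 4 siRNA libraries and 0 to 4904 when 1 was left out, with 4904 and 4903 without an untransfected library. NT5E had an adjusted p of 0.0008 to 0.41 there, and SLC29A1 of 0.0008 to 0.43. For control siRNA the counts were 5, 3 with a pseudocount of 0.1, 3 without a filter, and 3 to 2059 when 1 library was left out, with 2059 and 413 without the parental or the resistant untransfected library. Over all genes, the number at least 2-fold apart with a pseudocount of 0.1 was 1351 in place of 868, 574 in place of 296 and 836 in place of 369 between the lines (untransfected, control siRNA, EHMT2 siRNA), 1738 in place of 1088 and 2061 in place of 1313 for EHMT2 siRNA in resistant and parental cells, and 1494 in place of 954 and 709 in place of 353 for control siRNA. With a filter of 5 FPKM, 238 genes were apart between the lines with EHMT2 siRNA. The causes were not tested. The depth of the libraries is unknown, which limits above all DPYD.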
